A study of Homo sapiens with 4 samples.

Results

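The 9 long noncoding RNA (lncRNA) genes studied in liver cancer that are described here were *NEAT1*, *MALAT1*, *PVT1*, *GAS5*, *DANCR*, *HULC*, *LINC00261*, *FAM99A* and *FAM99B*. They were chosen by name, with earlier results of these data known. Each was taken as its gene body in GENCODE release 44 (hg38) with 10 kb on either side, out of 62700 annotated genes of which 18866 were lncRNA genes. Chromatin accessibility was profiled by ATAC-seq, in which a transposase cuts open DNA and the cut ends are sequenced, in HepG2, a human liver cancer cell line, wild type in both groups according to the labels. The 2 control libraries came from untreated cells, with no vehicle named for them in the labels, and the 2 tazemetostat libraries from cells given 5 µM tazemetostat in DMSO for 48 h, each library from 50000 cells. Tazemetostat inhibits EZH2, the enzyme of polycomb repressive complex 2 that methylates histone H3 at lysine 27, and the comparison addresses where chromatin became more or less accessible once that enzyme was inhibited. Nothing in the labels says that replicates came from separate cultures, so the p-values measure the spread between these libraries, which may be technical, and 1 cell line stands for the tumour.

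Each library was deposited as a list of called peaks with a normalised tag count, which is the number of sequenced tags in the peak per 10 M mapped tags. Mapped tags ranged from 17191428 to 26564400 per library, and the deeper library of each group was replicate 2. A position where no peak was called has no value, so a peak missing from a library is not a measured decrease. The fragment length set for peak calling was 200 bp in both controls and 144 bp under tazemetostat, so that this choice and the treatment cannot be told apart. The methods of the paper also describe a DNase I step before ATAC-seq for the tazemetostat-treated cells. They do not state whether the controls went through it. Promoters of 6 of 9 hepatocyte marker genes, among them *APOA1* and *HNF4A*, carried a peak in all 4 libraries, whereas *ALB* had none, *AFP* had one in 2 libraries and *FOXA2* in 1. No library had a promoter peak at any of 8 markers of blood, endothelial, stromal or muscle cells.

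LncRNAs are transcribed like messenger RNAs but are not translated, and their promoters open in the same way, as stretches from which nucleosomes are cleared so that the transposase can cut. *NEAT1* and *MALAT1* make abundant nuclear RNAs, the first being the scaffold of paraspeckles and the second a component of nuclear speckles. *GAS5* and *DANCR* are hosts of small nucleolar RNAs, *PVT1* lies next to *MYC*, and *HULC*, *LINC00261*, *FAM99A* and *FAM99B* are known for expression in liver or liver tumours.

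The sequences below are shown because they lie at or near starts of these genes where peaks were or were not called. Capitals mark exact matches, on either strand, to short motifs of promoter and liver transcription factors. The motifs present were the SP/KLF box GGGCGG, the CAAT box CCAAT, the E-box CACGTG, the NRF1 motif GCGCANGCG, the TATA box TATAAA, the FOXA motif TGTTTAC, the CEBP motif TTGCNNAA and AGGNGGC, a short core of the CTCF motif. In stretches of 300 bases, GGGCGG was found in 45.0% of 35116 promoters and 21.5% of 78220 accessible regions. CCAAT was found in 34.6% and 30.9%, CACGTG in 7.26% and 5.35%, GCGCANGCG in 7.52% and 2.08%, TATAAA in 11.5% and 8.72%, TGTTTAC in 3.42% and 8.23%, TTGCNNAA in 10.5% and 13.4%, and AGGNGGC in 35.9% and 30.4%. A match describes the letters and does not show that a factor binds.

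The first 3 sequences come from promoter regions that carried a peak in all 4 libraries. For *GAS5* it is the middle of the stretch that all 4 peaks shared (hg38, chr1:173867992-173868291, plus strand, while the gene lies on the minus strand). It lies inside the annotated gene and does not cross the gene start. For *DANCR* (chr4:52712144-52712443) and *MALAT1* (chr11:65497488-65497787) it is a RefSeq promoter (GRCh38.p14, plus strand), a window of 300 bases that runs across the gene start. A further RefSeq promoter of *MALAT1* (chr11:65498795-65499094), not shown, had no peak in any library. Its GC content was 46.0%, and it held a TATA box but no GGGCGG.
GAS5: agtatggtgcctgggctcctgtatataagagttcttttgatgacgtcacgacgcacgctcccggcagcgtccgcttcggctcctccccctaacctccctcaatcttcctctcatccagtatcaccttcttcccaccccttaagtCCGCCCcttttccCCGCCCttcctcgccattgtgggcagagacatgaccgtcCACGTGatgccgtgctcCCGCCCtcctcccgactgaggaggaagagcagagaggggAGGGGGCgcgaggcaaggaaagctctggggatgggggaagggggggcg
DANCR: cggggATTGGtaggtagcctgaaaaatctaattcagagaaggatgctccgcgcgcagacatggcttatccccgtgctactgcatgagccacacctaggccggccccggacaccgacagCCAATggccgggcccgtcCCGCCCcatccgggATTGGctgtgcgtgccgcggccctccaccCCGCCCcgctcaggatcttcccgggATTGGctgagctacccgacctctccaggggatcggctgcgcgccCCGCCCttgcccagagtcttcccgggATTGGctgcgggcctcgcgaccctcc
MALAT1: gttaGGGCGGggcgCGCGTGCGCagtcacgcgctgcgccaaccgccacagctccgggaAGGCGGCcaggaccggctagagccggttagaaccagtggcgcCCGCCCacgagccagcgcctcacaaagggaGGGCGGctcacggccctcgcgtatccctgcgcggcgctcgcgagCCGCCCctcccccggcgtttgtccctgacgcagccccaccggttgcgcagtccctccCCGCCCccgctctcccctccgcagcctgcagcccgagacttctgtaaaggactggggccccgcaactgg
These 3 were rich in GGGCGG, with 3 matches in *GAS5*, 3 in *DANCR* and 5 in *MALAT1*. *DANCR* held 5 CAAT boxes and *GAS5* an E-box. Their GC content was 62.0%, 67.7% and 73.7%, against a median of 58.7% over all promoters.

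The other 3 are RefSeq promoters (GRCh38.p14) at which no peak was called in any library, *LINC00261* (chr20:22578593-22578892, minus strand), *FAM99A* (chr11:1665349-1665648, plus strand) and *FAM99B* (chr11:1685580-1685879, minus strand).
LINC00261: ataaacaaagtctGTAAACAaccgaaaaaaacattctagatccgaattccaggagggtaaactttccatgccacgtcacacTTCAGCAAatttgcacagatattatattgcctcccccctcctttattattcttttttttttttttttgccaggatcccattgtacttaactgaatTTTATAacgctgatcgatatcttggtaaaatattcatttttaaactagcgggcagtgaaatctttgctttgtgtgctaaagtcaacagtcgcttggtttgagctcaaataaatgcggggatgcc
FAM99A: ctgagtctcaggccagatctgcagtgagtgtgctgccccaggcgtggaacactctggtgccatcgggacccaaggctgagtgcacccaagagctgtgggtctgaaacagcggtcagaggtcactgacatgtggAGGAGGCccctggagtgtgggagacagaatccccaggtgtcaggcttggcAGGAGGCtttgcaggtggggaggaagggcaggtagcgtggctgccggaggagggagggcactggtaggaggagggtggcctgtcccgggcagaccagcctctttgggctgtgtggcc
FAM99B: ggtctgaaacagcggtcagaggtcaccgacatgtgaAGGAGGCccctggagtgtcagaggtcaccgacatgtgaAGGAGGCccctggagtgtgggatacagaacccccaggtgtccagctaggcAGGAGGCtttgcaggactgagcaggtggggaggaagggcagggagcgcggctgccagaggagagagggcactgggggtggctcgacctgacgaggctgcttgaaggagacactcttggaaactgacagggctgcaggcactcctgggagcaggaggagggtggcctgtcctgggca
*LINC00261* held 1 match each to the FOXA, CEBP and TATA motifs at a GC content of 37.0%. The GC content of *FAM99A* and *FAM99B* was 64.0% and 63.3%, above that of *GAS5*, so promoters with and without peaks overlapped in GC content. The ratio of observed to expected CG dinucleotides was lower in *FAM99A* (0.211) and *FAM99B* (0.255) than in *GAS5* (0.664), *DANCR* (0.798) and *MALAT1* (0.925). In *LINC00261* it was 0.790, within the range of those with peaks, and the median over all promoters was 0.579. *FAM99A* and *FAM99B* are near-identical copies on opposite strands of chromosome 11. Their RefSeq gene bodies matched at 1843 of 1859 aligned bases (99.1%) and the 2 promoters at 169 of 195 (86.7%), so tags that fall in the shared stretches cannot be placed with certainty.

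All 9 genes had at least 1 peak, and most of their peaks lay in *PVT1* and *HULC*. Together the windows held 134 peaks, which merged into 57 separate regions where peaks of different libraries overlapped by at least 1 bp. Of these regions, 24 were in *PVT1* and 13 in *HULC*, whose annotated bodies span 393 kb and 859 kb. The other windows held 6 regions (*MALAT1*), 3 (*NEAT1* and *LINC00261*) or 2 (*GAS5*, *DANCR*, *FAM99A* and *FAM99B*).

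The windows held 22 and 29 peaks in control replicates 1 and 2, and 42 and 41 in tazemetostat replicates 1 and 2, in that order. The means were 25.5 ± 4.95 (SD, n = 2) and 41.5 ± 0.707 (SD, n = 2), and the groups did not overlap. The exact permutation test (two-sided, 2 against 2 libraries) gave p = 0.3333, the smallest value this design allows. As a share of all peaks in the library the members took 0.0842% and 0.0834% for the controls against 0.0759% and 0.0757% for tazemetostat, and the longer peak lists of the treated libraries thus went with the larger number. With the strongest 26133 peaks kept in each library, the numbers were 22 and 26 against 23 and 20, and the difference of the means turned from 16 to -2.5.

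**Figure D1:**
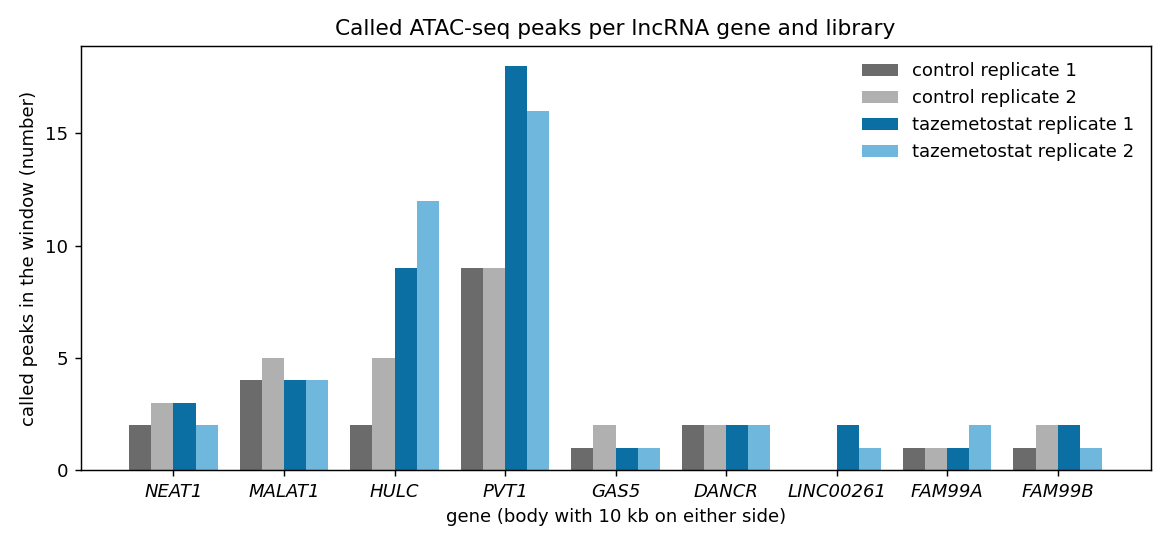
Number of called peaks (vertical axis) in the window of each of the 9 lncRNA genes, with 1 bar per library. *PVT1* had 9 peaks in either control against 18 and 16 after treatment, and *HULC* 2 and 5 against 9 and 12, while the other 7 genes differed by at most 2 peaks between any libraries.

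Of the 57 regions, 15 (26.3%) were called in all 4 libraries, where all regions of the series gave 20.4%. A further 12 (21.1%, against 13.2% of all regions) had a peak in each tazemetostat library and in exactly 1 control, which was control replicate 2, the deeper one, in 10 and control replicate 1 in 2. In 10 of these 12, both tazemetostat values lay above the control value, as they did in 73.3% of all regions of this kind. Regions called in a single library numbered 23 (40.4%, against 46.2%), of which 18 were in a tazemetostat library and 5 in a control. The remaining 4 were called in 1 library of each group.

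Regions called in both tazemetostat libraries and in no control were few. There were 3 among 57 (5.26%), where 13.7% of all 80551 regions fell in that set, and they lay in 2 of the 9 genes, *PVT1* and *HULC*. Over all genes with a region in the window 30.5% had at least 1 such region, and 28.9% of lncRNA genes. No member region was called in both controls and in neither tazemetostat library, a set that held 0.449% of all regions. The highest normalised tag count of the 3 tazemetostat-only regions was 10.2, below the median of all peaks of that library, 12.8, and above its lowest listed value, 4.89. Among peaks at least 8-fold over the surrounding 10 kb the members had 1 tazemetostat-only and 2 control-only regions, sets that held 13.3% and 1.95% of all regions so filtered. The 2 control-only regions were the *DANCR* promoter region and the *PVT1* region 391 kb from the start. Both had a peak in every library before the filter, with higher tag counts under tazemetostat. Their local folds were 9.46 and 10.02 (*DANCR*) and 17.84 and 12.25 (*PVT1*) in the controls. Under tazemetostat they were 7.22 and 7.41, and 6.72 and 5.68, below the cut-off.

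The regions called in all 4 libraries allow the level itself to be compared. In 10 of 15 both tazemetostat values exceeded both control values, and in 1 they lay below them, whereas over all 15383 regions with 1 peak in every library these shares were 81.6% and 1.75%. In limma on log2(normalised tag count + 1), 5 of the 15 (33.3%) were higher with tazemetostat (Benjamini-Hochberg adjusted p below 0.05), and 0 were lower. Over all tested regions 42.7% were higher and 0.247% lower. The 5 were the promoter regions of *GAS5* and *DANCR* and 3 regions in the last part of *PVT1*.

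Of the mapped tags, 4.32% and 5.69% lay in called peaks in control replicates 1 and 2, against 11.5% and 9.81% in tazemetostat replicates 1 and 2. Tag counts were scaled to mapped tags alone, so this difference between libraries and the treatment cannot be told apart. The median change over all tested regions was 0.70 on the log2 scale, with a positive change in 95.4% of them, and the median of the 15 was 0.59. Relative to that median the 5 regions stood at 0.63, 0.32 and 0.45 in *PVT1*, 0.46 in *GAS5* and 0.14 in *DANCR*, and the other 10 lay below it. With each library centred on its own median, none of the 15 passed, and none of all 15383 did in limma, where an unadjusted p below 0.05 was reached by 468 that were higher and 1188 that were lower. Without either tazemetostat library, limma called 0 of the 15 and 0 of all 15383 regions, of which 3238 (without replicate 1) and 5977 (without replicate 2) were higher at an unadjusted p below 0.05. Without control replicate 1 it called 1 of the 15 and 21.3% of all regions, and without control replicate 2 it called 10 of the 15 and 55.1%.

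**Figure D2:**
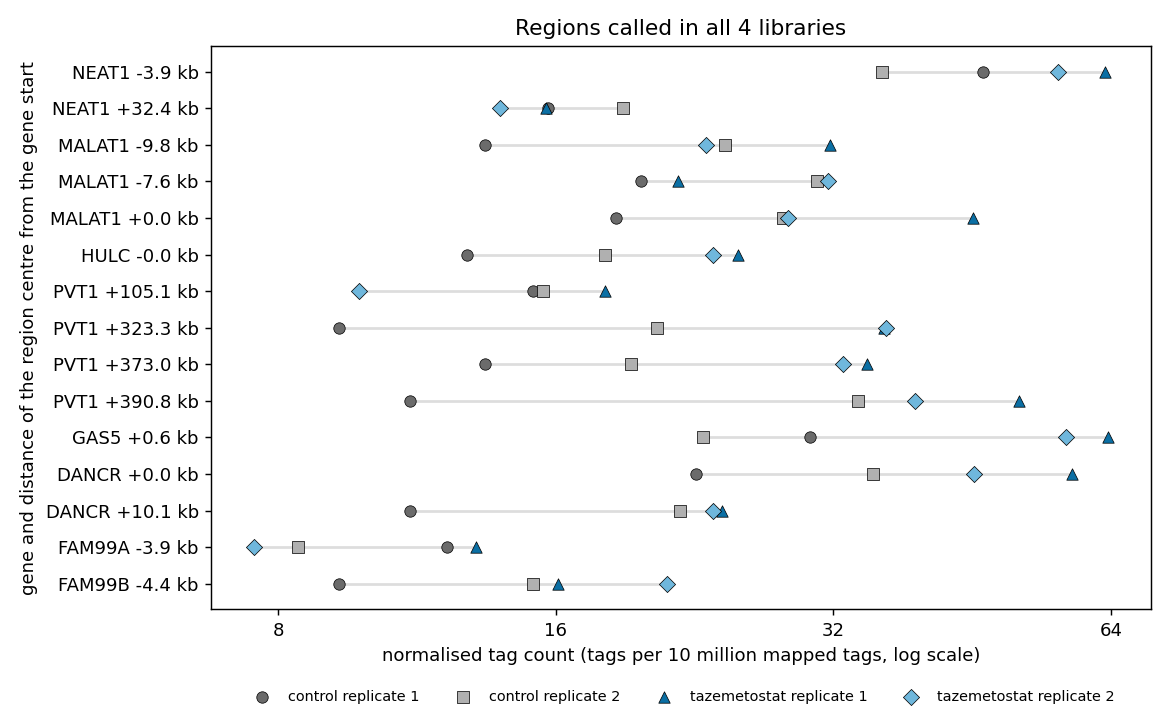
Normalised tag count (horizontal axis, tags per 10 M mapped tags, log scale) of the 15 member regions called in all 4 libraries, with 1 symbol per library and a grey line over their range. In *GAS5* and in the 3 *PVT1* regions farthest from its start both tazemetostat symbols stand to the right of both controls, and control replicate 1 is the lowest symbol in 10 of the 15 regions.

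**Figure D3:**
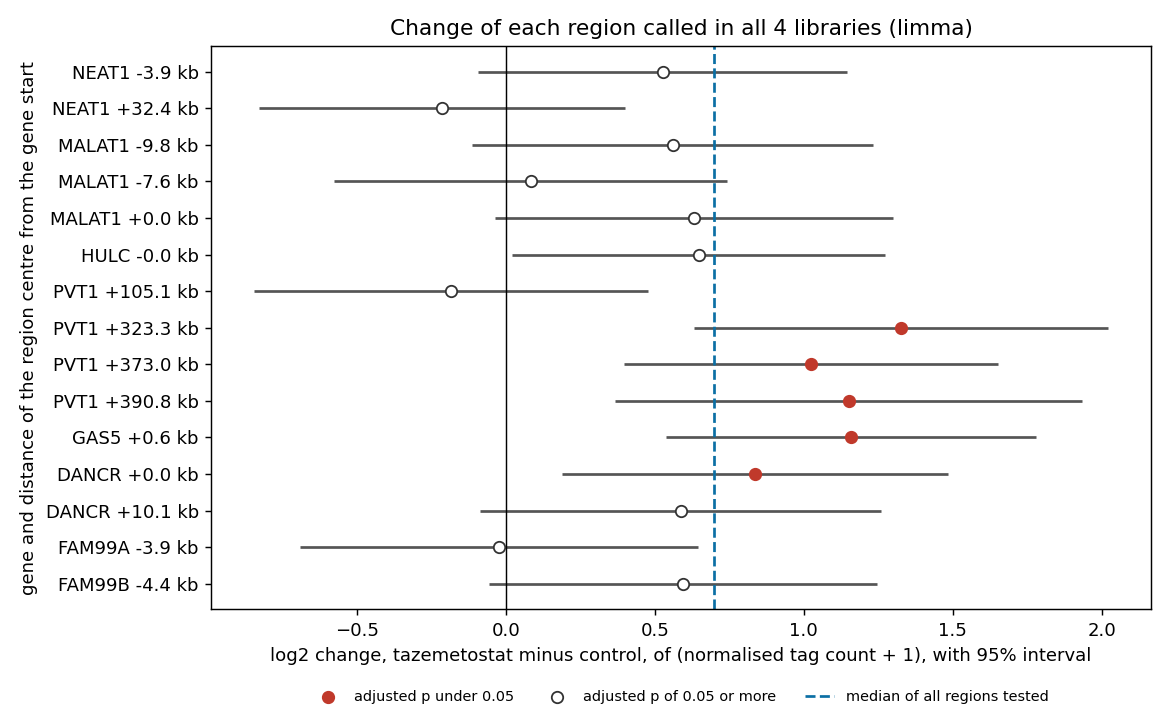
Log2 change of normalised tag count + 1, tazemetostat minus control, with its 95% interval from limma (horizontal axis) for the same 15 regions. Filled red points passed an adjusted p of 0.05, and the dashed line is the median of all tested regions, 0.70, which lies inside the intervals of the 5 that passed.

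Both small nucleolar RNA host genes had an open promoter in every library, and each was among the 42.7% of tested regions that were higher under tazemetostat. *GAS5* (growth arrest specific 5), whose RNA accumulates in arrested cells, had a region of 1118 bp lying just inside its annotated start (hg38, chr1:173867738-173868856). Of this region, 300 bases were given above. The region also covers the promoter of *ZBTB37*, transcribed the other way, so its tags cannot be assigned to either gene. Its normalised tag counts were 30.2 and 23.1 in the controls and 63.5 and 57.2 under tazemetostat. Both tazemetostat values lay well above both controls, and the log2 change was 1.16 ± 0.30 (SE, adjusted p = 0.0120 in limma). The call was kept without either control. Without tazemetostat replicate 1 or 2 the change was 1.09 or 1.23, and no region of the whole table passed. The other region of the window, at the start of *GAS5-AS1*, was called in control replicate 2 alone at 11.3.

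*DANCR*, whose name refers to its role against differentiation, had a promoter region of 738 bp across its start (chr4:52711994-52712732) that also overlaps promoters of *SNORA26*, *MIR4449* and *LINC01618*. Normalised tag counts were 22.7 and 35.3 in the controls and 58.0 and 45.5 under tazemetostat. The groups did not overlap, and the log2 change was 0.84 ± 0.31 (SE, adjusted p = 0.0387 in limma). Without control replicate 1 the change was 0.53 and did not pass (adjusted p = 0.213), and a fit with the replicate number as a block gave an adjusted p of 0.0527. The second region, 10.1 kb from the start, lies near the end of the gene in GENCODE and past its end in RefSeq. It also overlaps *ERVMER34-1*, *LINC01618* and a promoter of another annotated gene that has no symbol. Its values were 11.1, 21.8, 24.2 and 23.7 in the same order of libraries, and it did not pass (log2 change 0.59 ± 0.32, adjusted p = 0.123 in limma).

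The neighbouring lncRNA genes *NEAT1* and *MALAT1* on chromosome 11 had peaks in all libraries, but none passed on the scale of the whole peak. No peak was called at the annotated starts of *NEAT1*. Its strongest region lay 3.87 kb upstream (chr11:65418553-65419250) with 46.5 and 36.1 in the controls and 63.0 and 56.1 under tazemetostat, the highest control values of any member region. The log2 change was 0.53 ± 0.30 (SE, adjusted p = 0.132 in limma). Per kilobase of peak this region did pass, at 0.60 (adjusted p = 0.0281 in limma), on a scale where 33.2% of all regions passed. A region 32.4 kb downstream of the start, in the promoter of the pseudogene *FAUP4*, was the only one of the 15 with both tazemetostat values below both controls, at 15.7 and 18.9 against 15.6 and 13.9, and its change of -0.21 ± 0.30 did not pass (adjusted p = 0.518). The third region was called in 1 library of each group, at 8.4 and 14.6.

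*MALAT1* had 6 regions, 3 of them in all 4 libraries. The promoter region (chr11:65497275-65498051, 776 bp) spans the gene start, and the RefSeq promoter sequence given above lies within it. It had 18.6 and 28.2 in the controls and 45.4 and 28.6 with tazemetostat, whose replicate 2 barely exceeded control replicate 2. The log2 change was 0.63 ± 0.32 (SE, adjusted p = 0.0995 in limma), and per kilobase of peak it was 0.74 and passed (adjusted p = 0.00811). Regions 9.84 kb and 7.55 kb upstream had 13.4, 24.4, 31.7 and 23.3, and 19.8, 30.7, 21.7 and 31.6, with overlapping groups and changes of 0.56 and 0.08 (adjusted p = 0.139 and 0.815). The first of them lies at a promoter of *LINC02736*. Near the 3′ end, at promoters of the antisense gene *TALAM1*, 1 region was called in each control alone (8.73 and 9.66), and a region past the gene end was called in control replicate 2 at 9.24 and under tazemetostat at 15.1 and 17.7.

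*PVT1*, which shares its neighbourhood with the oncogene *MYC* and is often gained with it in tumours, was the gene with the most peaks, with 9 in each control and 18 and 16 under tazemetostat. Its main promoter region (chr8:127793864-127794472) was called in control replicate 1 at 11.1 and in tazemetostat replicate 1 at 18.1, and in neither replicate 2, although those were the deeper libraries. The 3 regions that passed lay 323 kb, 373 kb and 391 kb from the start. The first (chr8:128117422-128118272) had 9.31 and 20.6 in the controls and 36.3 and 36.5 under tazemetostat, and its log2 change was 1.33 ± 0.33 (SE, adjusted p = 0.0114 in limma). The second (chr8:128167196-128167922) had 13.4 and 19.3 against 34.8 and 32.8, a change of 1.02 ± 0.30 (adjusted p = 0.0177).

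The third (chr8:128184888-128185777) had 11.1 and 34.0 against 50.9 and 39.2, a change of 1.15 ± 0.38 (adjusted p = 0.0254). In all 3 regions control replicate 1 was the lowest library, and without it the changes were 0.79, 0.78 and 0.38 and none of the 3 passed. The called length of the third region was 382 and 728 bp in the controls and 843 and 886 bp under tazemetostat, and without control replicate 2 its change was 1.92. Per kilobase of peak the changes were 0.53, 0.78 and 0.48, and the third did not pass (adjusted p = 0.0473, 0.00583 and 0.0724 in limma). Adjacent regions at 382 kb and 403 kb, not tested because control replicate 1 had no peak there, were listed at 19.3 and 21 in control replicate 2 and between 34.8 and 37.3 under tazemetostat. The fourth region called everywhere, 105 kb from the start, had 15.1 and 15.5 against 18.1 and 9.79, with overlapping groups (log2 change -0.18 ± 0.32, adjusted p = 0.606).

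The strongest regions of *PVT1* lay near its 3′ end, and the window was divided there after the values were seen. The last 100 kb of the window held 9 regions with summed tag counts of 42.0 and 114 in the controls and 231 and 207 under tazemetostat. The remaining 313 kb held 15 regions with 58.2 and 40.3 against 111 and 78.3. The RefSeq gene ends 307 kb from its start and GENCODE extends it to 393 kb, so the 3 regions that passed lie inside the GENCODE gene and beyond the RefSeq one. The 2 tazemetostat-only regions were weak, with 8.57 and 5.65 at 205 kb (chr8:127999803-128000231) and 9.57 and 10.2 at 374 kb (chr8:128168391-128168772). Of the other regions, 4 had a peak in both tazemetostat libraries (7.05 to 18.1) and in 1 control (6.72 to 10.9), 1 had a value of 13.4 in control replicate 1 and 12 in tazemetostat replicate 2, and 10 were called in a single library, 8 of them under tazemetostat, at 5.65 to 12.1.

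**Figure D4:**
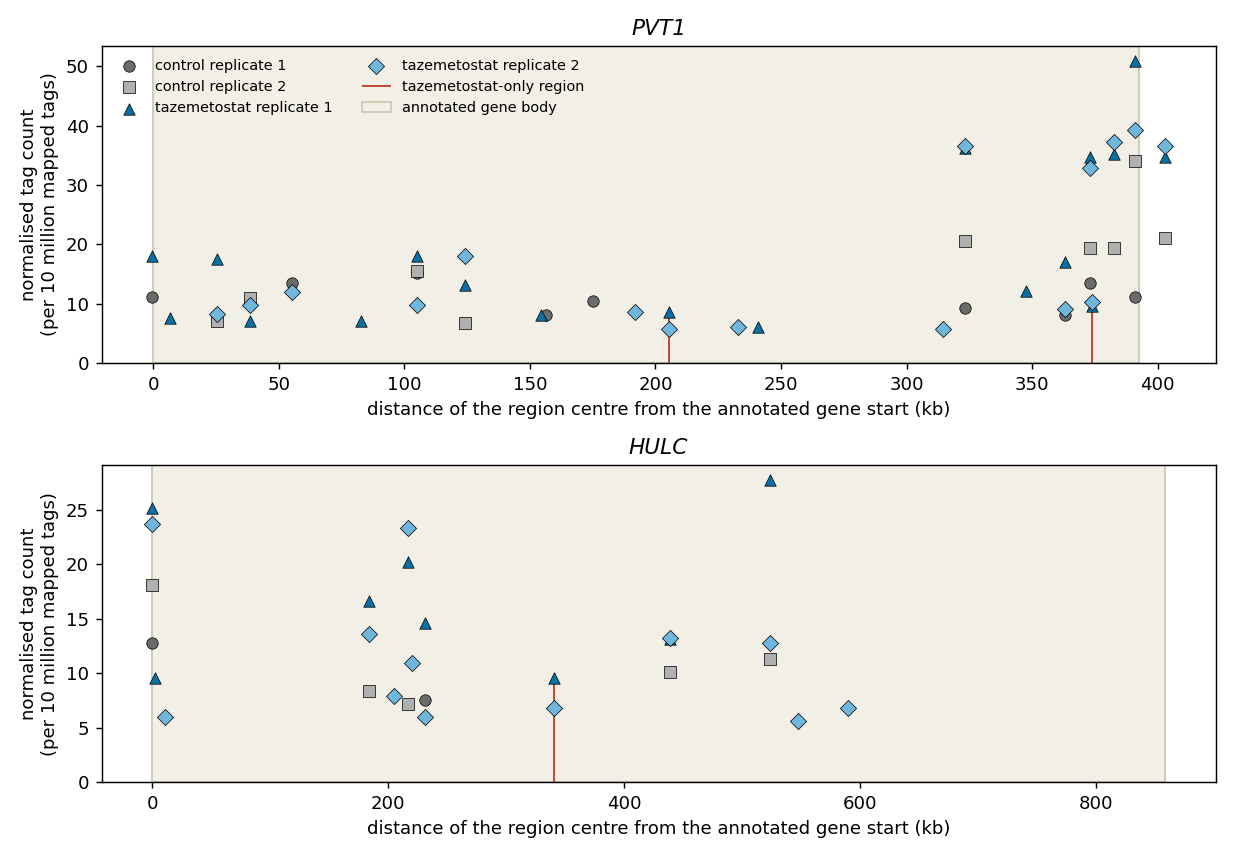
Normalised tag count (vertical axis, tags per 10 M mapped tags) against the distance of each region from the annotated gene start in kb (horizontal axis) in *PVT1* (top) and *HULC* (bottom), with 1 symbol per library and red lines at the tazemetostat-only regions. In *PVT1* the tazemetostat values above 30 all lie at 323 kb or farther, and in *HULC* most regions lack a symbol for control replicate 1.

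*HULC* (highly upregulated in liver cancer) is 1588 bp long in RefSeq but 859 kb in GENCODE, where transcripts that start at the promoter of *SLC35B3* are counted to it. That shared promoter region (chr6:8435174-8435872) had 12.8 and 18.1 in the controls and 25.2 and 23.7 under tazemetostat. The groups did not overlap, but the log2 change of 0.65 ± 0.30 did not pass (adjusted p = 0.0777 in limma). The region at the RefSeq start of *HULC* was not called in control replicate 1 and was listed at 7.14 in control replicate 2 and at 20.2 and 23.3 under tazemetostat. It could not be tested without a value in the first control.

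Further into the GENCODE gene, a region at 524 kb had 11.3 in control replicate 2 and 27.7 and 12.8 under tazemetostat, and those at 184 kb and 439 kb had 8.4 and 10.1 in that control against 13.1 to 16.6 under tazemetostat. A region at 231 kb had 7.56 in control replicate 1 against 14.6 and 6.02, the 14.6 being the sum of 2 separate peaks in tazemetostat replicate 1. The tazemetostat-only region, 340 kb from the start and at the start of another annotated transcript, had 9.57 and 6.78. Of the 6 regions called in 1 library, 5 were in tazemetostat replicate 2 and 1 in tazemetostat replicate 1, with counts from 5.65 to 10.9. Between the last of these, 590 kb from the start, and the gene end no peak was called in any library.

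Summed over all peaks of a window, *HULC* and *PVT1* were the 2 genes of 8 tested (25.0%) that passed in limma, and both were higher under tazemetostat, where 32.2% of 21219 gene windows were higher and 0.0566% lower. *HULC* summed to 20.4 and 55.0 in the controls and 137 and 137 under tazemetostat (log2 change 1.99 ± 0.46, SE, adjusted p = 0.0281), and *PVT1* to 100 and 154 against 342 and 285 (1.32 ± 0.37, adjusted p = 0.0348). The median of all windows was 0.93, and centred on the library median neither passed. These sums grew with the length called, which went from 0.763 and 1.99 kb to 3.83 and 5.20 kb in *HULC* and from 3.33 and 4.70 kb to 9.12 and 7.92 kb in *PVT1*. The mean density per kb of peak was 26.7 and 27.6 against 35.6 and 26.3 in *HULC* and 30.1 and 32.9 against 37.5 and 36.0 in *PVT1*, and neither passed on that scale (log2 changes 0.17 and 0.22), while *NEAT1* and *GAS5* did, at 0.60 and 0.82, among 10.8% of all windows. The *HULC* change was 1.30 without control replicate 1 and 2.69 without control replicate 2. With *HULC* and the others taken as the RefSeq genes, no window passed, and *HULC* could not be tested.

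The remaining genes known from liver had few peaks, between 0 and 2 in each library. *LINC00261*, which neighbours the pioneer factor gene *FOXA2*, was the only member with no peak in either control. Its 3 regions were each called in 1 tazemetostat library, at 7.05 and 13.6 in replicate 1 and at 20.7 in replicate 2, the last (chr20:22584241-22584541) in the promoter of *FOXA2*. Their folds over local background were 4.48, 4.32 and 4.2 in that order, near the 4-fold required for a peak. No region was called in both tazemetostat libraries, so neither a level nor a change can be given.

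*FAM99A* and *FAM99B* had no peak over the gene or its promoter. The region 3.91 kb upstream of *FAM99A* (chr11:1661470-1661897) had 12.2, 8.4, 13.1 and 7.53 in control replicates 1 and 2 and tazemetostat replicates 1 and 2. Each group had 1 high and 1 low library, and the log2 change was -0.02 ± 0.32 (SE, 95% interval from -0.69 to 0.64, adjusted p = 0.951 in limma). The region 4.42 kb upstream of *FAM99B* (chr11:1689726-1690371) had 9.31, 15.1, 16.1 and 21.1, with both tazemetostat values above both controls, and its change of 0.59 ± 0.31 did not pass (adjusted p = 0.110). A further region of each gene was called in tazemetostat replicate 2 alone (10.9) or in control replicate 2 and tazemetostat replicate 1 (11.3 and 17.1).

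In base composition the member regions were close to the rest. Their median GC content was 51.1% and the median ratio of observed to expected CG dinucleotides 0.221, against 51.8% and 0.249 over all regions. The 15 called in all 4 libraries had a higher median GC content than all regions so called, 60.0% against 53.8%, and a similar ratio, 0.340 against 0.332.

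The same window fit covered other lncRNA genes. Of 13 other small nucleolar RNA host genes, 7 could be tested over their windows and 2 were higher in limma, *SNHG16* (log2 change 1.22 ± 0.34 SE, adjusted p = 0.0355) and *SNHG32* (1.03 ± 0.34, adjusted p = 0.0475), with a median of 0.77 over the 7. Of 18 further lncRNA genes studied in liver, 13 could be tested and 4 were higher, *LINC01093* (1.68), *LINC-PINT* (1.23), *LINC01554* (1.17) and *TUG1* (1.02), with a median of 0.91. None was lower in either list. Over all 5727 lncRNA windows tested, 1836 were higher and 4 lower with a median of 0.93, and the 8 members had a median of 0.74. Tazemetostat-only regions lay in 5 of the 11 host genes and 5 of the 17 further genes with a region in the window, where 28.9% of lncRNA genes had one. In *LINC-PINT*, a p53-induced lncRNA, 3 of its 7 such regions were at annotated promoters, and 1 region was called in both controls alone.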

How the data were processed

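The data were 4 ATAC-seq peak lists of HepG2 cells, grouped by their titles. Per the labels and the methods, the authors used Trim Galore 0.6.6 for trimming, Bowtie2 2.3.5.1 for alignment against hg38 with inserts of up to 2000 bp, and HOMER 4.11.1 for peaks, which were called library by library. Per the file headers, peaks of 300 bp had to reach 4-fold over the surrounding 10 kb at a Poisson p-value of 0.0001, the false discovery rate was 0.001, where the methods state 0.05, and peaks were stitched to variable lengths. A shift of the tags for the cut of the transposase is not given in the sources used here. The normalised tag count, as deposited, is a signal of tags per 10 M mapped tags. The deposited fold over local background is a ratio and was used to filter peaks in an alternative, while the deposited score, the clonal ratio and the p-value columns were not used. Of the candidate peaks the local filter discarded 77.0% and 80.0% for the controls against 62.7% and 70.9% for tazemetostat, and a position with many tags can thus lack a peak. Depth bounds the precision of each value, and duplicates without molecular identifiers are not independent molecules.

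Overlapping peaks of the 4 libraries (1 bp or more) were joined into regions, which were set against GENCODE release 44. A promoter ran from 1 kb upstream to 100 bp downstream of any annotated start. Regions with exactly 1 peak in every library, and summed peaks of gene windows with a peak in every library, were fitted over the whole table with limma 3.58.1 in R 4.3.3 on log2(normalised tag count + 1), on which changes of low values are understated. P-values were adjusted by Benjamini-Hochberg over the table, with 0.05 as threshold. Numbers of peaks were compared by the exact permutation test (scipy 1.17.1). The merging and the fit were tested on simulated data. Motifs were exact matches, and promoter sequences of 6 of the 9 genes were matched by symbol in the RefSeq table. Some sequences are not reported here. The members and lists were chosen with earlier results of these data known. Within a gene, the promoter region, every region called only in one group, those that passed and the strongest one were given in full. Alternatives were an equal number of peaks, a stricter local fold, 50% overlap, other windows, other scalings and filters, a replicate block and leaving out each library.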

Additional observations from a re-analysis of the deposited data

How the results depend on the processing

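The 3 tazemetostat-only regions in 2 genes became 1 region in 1 gene with peaks at least 8-fold over local background, with 26133 peaks per library, and with RefSeq gene bodies (chosen after seeing the data), and 0 control-only regions became 2, 1 and 0. At the stricter fold, both control-only regions had tazemetostat peaks that fell below the cut-off. Leaving out 1 library gave 5 to 13 tazemetostat-only regions in 2 to 4 genes and 0 to 3 control-only regions, by construction, since 1 library then stands for a group. A 50% overlap, the gene body alone and 50 kb on either side left these counts as they were. The difference in mean peak number (16) was -2.5 with equal peak numbers. The 5 regions and 2 windows past the threshold in limma became 0 and 0 when centred on the library median and 0 and 0 at a local fold of at least 8, where 1 region and 3 windows were left to test, and RefSeq genes left 0 windows. Leaving out 1 library gave 0 to 10 regions and 0 to 5 windows, and 0 of all regions and windows without either tazemetostat library, a lone library being assumed to vary like the others. A pseudocount of 5 and a mean tag count of at least 10 changed no member call. Per kilobase of peak, 6 regions and 2 windows passed, with 33.2% of all regions and 10.8% of all windows. The causes were not tested.

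Centred on the library median, changes turned negative in the regions of *NEAT1* (-0.23), *MALAT1* (-0.20, -0.68 and -0.13), *HULC* (-0.11), *DANCR* at 10.1 kb (-0.17) and *FAM99B* (-0.17), and in the windows of *NEAT1* (-0.60), *MALAT1* (-0.51), *GAS5* (-0.076), *DANCR* (-0.19), *FAM99A* (-0.39) and *FAM99B* (-0.25). Per kilobase the sign turned for *NEAT1* at 32.4 kb (0.20), *PVT1* at 105 kb (0.17), *FAM99A* (0.13) and *FAM99B* (-0.048). Leaving out 1 library turned it for *MALAT1* at 7.55 kb upstream (from -0.22 to 0.39) and *FAM99A* (from -0.39 to 0.34), without control replicate 1 or tazemetostat replicate 2, and for *PVT1* at 105 kb (from -0.60 to 0.23), without tazemetostat replicate 2. Replicates with the same number did not deviate together (r = -0.002 over regions and 0.06 over windows), and the replicate block left 4 regions and 2 windows past the threshold, the *DANCR* promoter being the one lost. The alternatives with edgeR and DESeq2 were not run, although the normalised tag count times the mapped tags came within 0.25 of a whole number in 100% of peaks. With 2 libraries a group and no values where no peak was called, depth and the local filter limit what can be said of absent peaks.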
